A study of Mus musculus with 10 samples.

Results

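The genes of the proteasome, grouped by subcomplex, were followed in RNA sequencing of sorted meningeal lymphatic endothelial cells (LECs). Members were taken by symbol, as every Psma, Psmb, Psmc, Psmd, Psme, Psmf or Psmg gene with a number, without pseudogenes and without Psmb8 and Psmb9, and with Pomp added. This gave 49 of the 55401 genes of the count table: 8 core alpha subunits, 9 core beta subunits, 6 ATPase subunits, 11 non-ATPase subunits, 6 activators or inhibitors, 8 assembly factors, and Psmc3ip, which carries a proteasome symbol only because its product binds Psmc3. The cells came from female C57BL/6 mice aged 3 months, with 5 naive replicates and 5 replicates from mice given sub-chronic variable stress (SCVS), which alternates foot shock, tail suspension and restraint over 6 days. The series gives its time point as 6 days after SCVS, and whether those days run from the start or the end of the stress is not stated. Each replicate pooled cells of 3 to 4 meninges, digested with the transcription blocker actinomycin D present and sorted as CD45-CD31+podoplanin+, and its RNA was amplified before sequencing. Total counts lay between 9984743 and 14094155 per replicate.

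The proteasome is the protease that degrades proteins tagged with ubiquitin. Its barrel-shaped core is built of outer rings of alpha subunits, which form the gate, and inner rings of beta subunits, some of which carry the protease sites. A regulatory particle, made of a ring of ATPases and a set of non-ATPase subunits, docks on the gate, recognises and unfolds substrates and feeds them in. Dedicated chaperones assemble both parts, other activators can take the place of the regulatory particle, and interferon exchanges the catalytic beta subunits for those of the immunoproteasome, which makes peptides for antigen presentation.

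Most of the proteasome was detected in every replicate, and no member passed the test between naive and SCVS. Of the 14 standard core subunits 12 had a positive log2 fold change, the subunits of the regulatory particle had no direction that held across settings, and the smallest p were those of Psmd8 and Psmd5, both lower in SCVS. The immunoproteasome members were lowest in 1 naive replicate. The marker sums of blood and of lymphatic endothelium were lowest there too, and the neural sum was highest.

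Some libraries went against the label of the sort. Naive 5 had 287 counts of the pan-endothelial gene Pecam1, against 5870 to 15644 in the other replicates, with 2 counts of Cldn5 and 0 of Vwf and Sox17. Its 6 blood endothelial markers summed to 312.5 CPM (counts per 1000000 counts of the replicate), against 4773 to 8948 CPM in the other 9, and 3 of the 6 had more than 3 counts. Its 5 neural markers summed to 3045 CPM, against 50.55 to 1769 CPM in the others, led by Snap25 (20496 counts) and Mbp (16599 counts), genes of neurons and oligodendrocytes. Its mural markers summed to more, 5078 CPM, with 67407 counts of Rgs5, inside the range of the others (406.4 to 7526 CPM). Of the lymphatic markers, naive 5 had 843 counts of Prox1 and 351 of Pdpn, with 1 of Lyve1. Its 8 lymphatic markers summed to 206.4 CPM, the lowest sum, against 1027 to 3797 CPM in the other 9. Naive 1 had 0 counts of Prox1 and Pdpn and 2 of Lyve1, with 10068 of Pecam1. Its mural sum was the highest, at 7526 CPM, with 59024 counts of Rgs5 and 15898 of Acta2. SCVS 5 had 2 counts of Prox1 and 24839 of the haemoglobin gene Hba-a1, and SCVS 4 had 41004 of the myeloid gene Lyz2. The 8 lymphatic markers summed to between 206.4 and 3679 CPM in naive and between 1027 and 3797 CPM in SCVS replicates, and the 6 leukocyte markers to between 7.772 and 360.8 CPM and between 121.6 and 3446 CPM. What part these differences had in the values below was not tested, and in bulk RNA fewer cells of a type and less RNA per cell cannot be told apart. The 6 fibroblast markers summed to between 55.52 and 1627 CPM in naive and between 18.52 and 1510 CPM in SCVS replicates. Of these, 5 of 6 were lower in SCVS (median log2 fold change -2.70). The 5 mural markers summed to between 769.4 and 7526 CPM and between 406.4 and 5834 CPM, with 4 of 5 lower (median -1.81). Lower too were 4 of 6 blood endothelial (median -0.1) and 5 of 5 neural markers (-0.24). Higher were 6 of 8 lymphatic (0.87), 4 of 5 tested leukocyte (2.76) and 3 of 3 tested erythroid markers (5.11). The erythroid sum was 4387 CPM in SCVS 5, against 4.03 to 123.8 CPM in the other 9. The leukocyte sum was 3446 CPM in SCVS 4, against 121.6 to 548.6 CPM in the other SCVS replicates. None of these markers passed edgeR's adjusted p.

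Proteasome genes were among the steadier genes of these amplified libraries. Between 45 and 48 of the 49 members had more than 3 counts in each replicate, and together they took between 0.747% and 0.903% of the counted reads. Of the 48 members that passed the filter of more than 5 counts in at least 3 replicates, 5 (10.4%) had 0 counts in some replicate, against 53.7% of the 14815 tested genes. The median coefficient of variation (CV, the SD over the mean) of their CPM was 0.354 in naive and 0.302 in SCVS replicates, against 0.935 and 0.866 over all tested genes. Members were also expressed higher than most genes, so the same was computed for genes with a mean of at least 100 CPM. There the 34 members had median CVs of 0.333 and 0.253, and the 1966 genes 0.451 and 0.391.

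**Figure D1:**
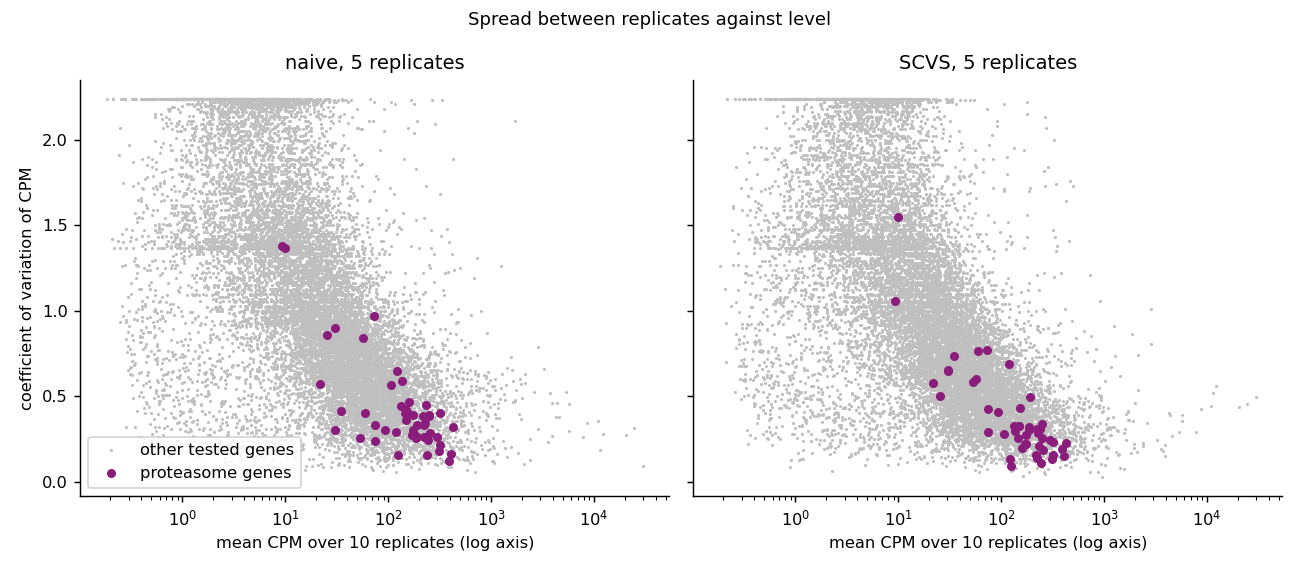
Coefficient of variation of CPM over the 5 replicates (vertical axis) against mean CPM over 10 replicates (horizontal log axis) for the tested genes, naive left and SCVS right, proteasome genes in purple and the others in grey. Most proteasome genes sit at the high-level, low-spread end, and 34 of the 48 have a mean of at least 100 CPM.

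The members detected least are known from other tissues or processes. Psmb11, the beta subunit of the thymus, had 0 counts in all naive replicates and 1 and 80 counts in SCVS 2 and SCVS 5, and was not tested. Psma8, the alpha subunit of the testis, had 0 counts in 5 of 10 replicates and up to 42.01 CPM in the others. Psmc3ip, which acts in meiotic recombination, had more than 3 counts in 6 replicates. Among the common subunits single dropouts occurred, with 0 counts of Psme3 and Psmg2 in naive 1 and of Psmg1 in SCVS 3, and 1 count of Psmd3 in SCVS 3 and of Psme4 in SCVS 4.

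Levels compared between genes per kilobase of transcript (CPM per kb, using the longest coding transcript of the mm9 annotation) differed widely within the core, whose subunits are built in at equal number. Over all replicates Psmb6 stood at 513 CPM per kb, Psmb2 at 491 and Psma7 at 424, while Psmb7 stood at 64.8 and Psma3 at 43.9. Pomp, the chaperone that is degraded inside each finished core, was at 423 CPM per kb. The largest activator transcript, Psme4, was at 5.35 CPM per kb. Transcript choice and amplification both enter these values, and their part was not tested.

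**Figure D2:**
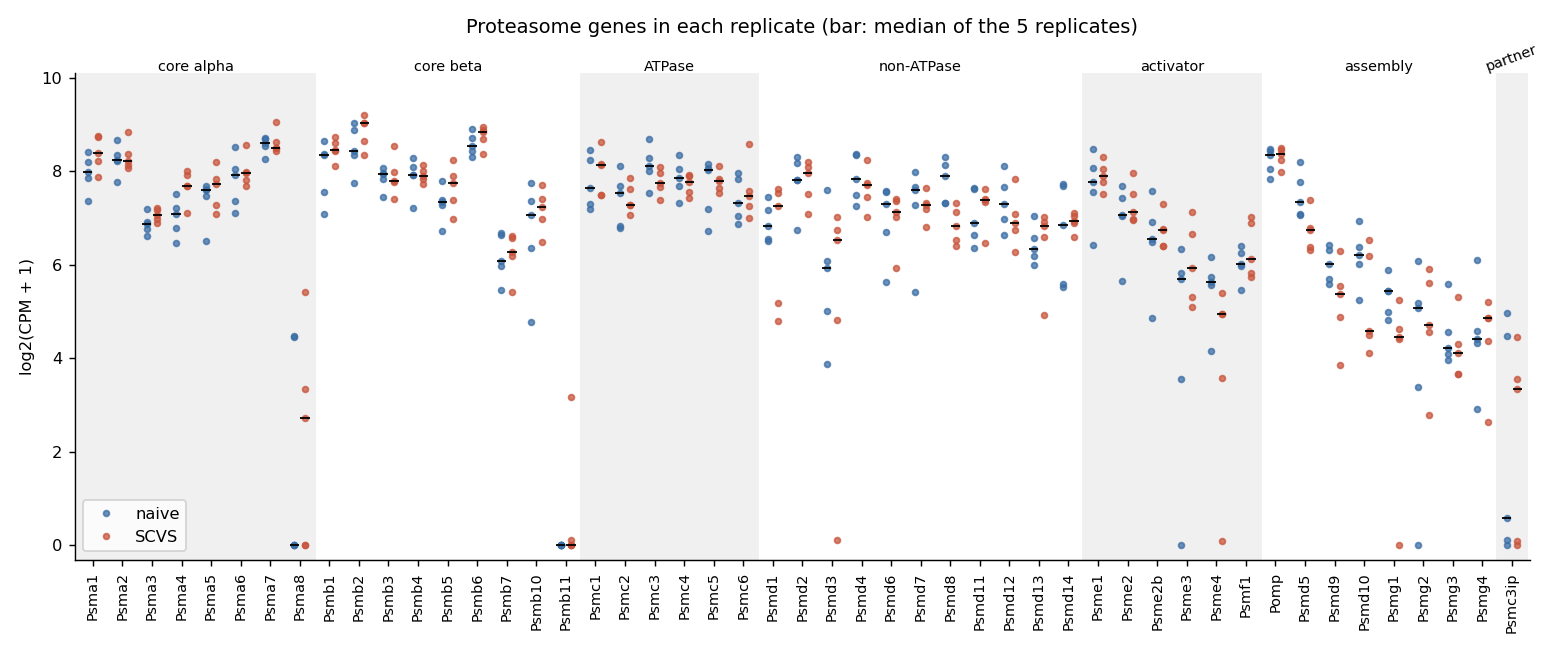
log2(CPM + 1) of each of the 49 proteasome genes in every replicate, naive in blue and SCVS in red, with black bars at the median of 5 replicates and shading by subcomplex. The 14 standard core genes have means of 75.14 to 422.1 CPM over all replicates, and the 17 regulatory particle genes of 72.03 to 253.6 CPM. Psmd3 is spread from 0.08114 to 194.0 CPM and Psmd1 from 26.75 to 194.6 CPM. Psmg1 to Psmg4, Psme3, Psme4, Psma8, Psmb11 and Psmc3ip have lower means.

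In the comparison of SCVS with naive, 0 of the 48 tested members passed an adjusted p of 0.1 in edgeR's quasi-likelihood test, as did 0 of the 14815 genes (0%). At an unadjusted p under 0.05 there were 2 members (4.17%), Psmd8 and Psmd5, beside 460 genes (3.10%) in all, a share close to the background. DESeq2 called 114 genes (0.814% of the 13998 it gave an adjusted p) and limma 3 genes (0.0202%), none of them a member, and the lowest adjusted p of a member was 0.295 in DESeq2 and 0.84 in limma. Members stood higher in SCVS for 26 genes and lower for 22, with a median log2 fold change of 0.02, against -0.03 over all tested genes, of which 48.2% were higher. The summed CPM of all members was 7892 ± 363.7 in naive and 8194 ± 588.8 in SCVS replicates (SD, n = 5 each), a ratio of 1.04 that is smaller than the spread between replicates. The 95% interval of the log2 fold change lay within -1 and 1 for 18 of the 48 members and for 10 of the 14 subunits of the standard core (Psma1 to Psma7 and Psmb1 to Psmb7), so larger changes were outside the interval for these and inside it for the rest.

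**Figure D3:**
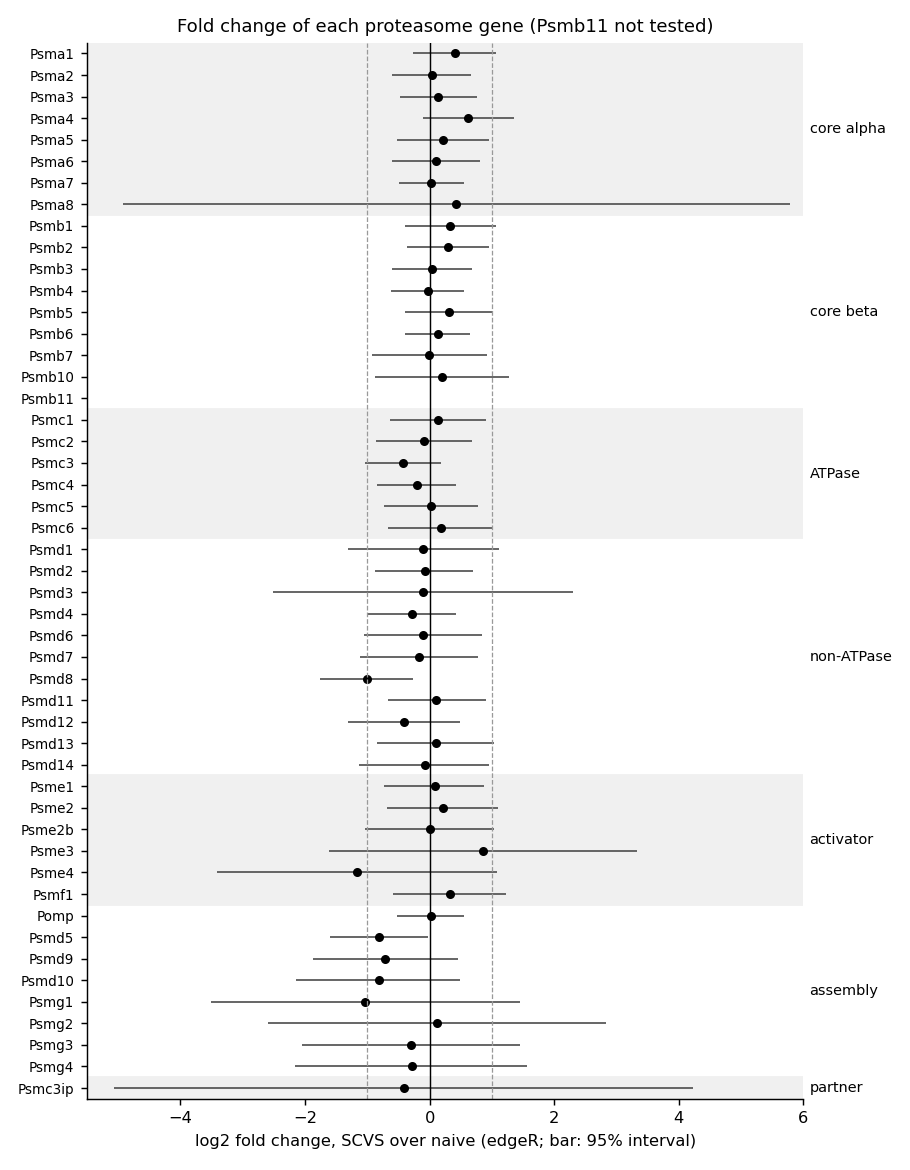
log2 fold change of SCVS over naive (horizontal axis, positive means higher in SCVS) with its 95% interval from edgeR for each tested proteasome gene, dashed lines at -1 and 1. Of the 48 intervals, those of Psmd8 (-1.76 to -0.27) and Psmd5 (-1.60 to -0.03) leave out 0, and those of the low genes Psma8 and Psmc3ip are the widest.

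Stretches of promoter are shown for the members the comparison turns on: Psmd8 and Psmd5 with the smallest p among those lower in SCVS, Psma4 with the smallest among those higher, and the catalytic Psmb5 and Psmb6. Each is the 250 bases before the annotated start, from RefSeq on GRCm38.p6, read 5′ to 3′ on the strand of the gene. Capitals mark the CGGAAG core bound by ETS factors (here in its reverse form, CTTCCG) and TGACNNNGC, the antioxidant response element core through which Nfe2l1 and Nfe2l2 act.
Psmd8, chr7:29180674-29180923, - strand: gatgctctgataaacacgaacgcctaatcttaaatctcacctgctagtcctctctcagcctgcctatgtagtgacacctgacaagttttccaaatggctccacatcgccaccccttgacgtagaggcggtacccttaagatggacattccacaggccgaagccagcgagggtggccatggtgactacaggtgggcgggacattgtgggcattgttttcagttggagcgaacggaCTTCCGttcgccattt
Psmd5, chr2:34870963-34871212, - strand: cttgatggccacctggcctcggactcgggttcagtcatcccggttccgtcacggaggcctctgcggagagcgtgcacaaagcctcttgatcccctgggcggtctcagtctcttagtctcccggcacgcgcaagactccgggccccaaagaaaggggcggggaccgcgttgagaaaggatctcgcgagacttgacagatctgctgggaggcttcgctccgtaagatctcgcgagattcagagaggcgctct
Psma4, chr9:54950609-54950858, + strand: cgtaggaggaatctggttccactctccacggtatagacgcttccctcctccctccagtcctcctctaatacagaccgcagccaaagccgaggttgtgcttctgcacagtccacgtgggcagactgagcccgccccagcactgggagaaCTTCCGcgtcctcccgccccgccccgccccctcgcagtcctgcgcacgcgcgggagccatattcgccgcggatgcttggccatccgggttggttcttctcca
Psmb5, chr14:54617996-54618245, - strand: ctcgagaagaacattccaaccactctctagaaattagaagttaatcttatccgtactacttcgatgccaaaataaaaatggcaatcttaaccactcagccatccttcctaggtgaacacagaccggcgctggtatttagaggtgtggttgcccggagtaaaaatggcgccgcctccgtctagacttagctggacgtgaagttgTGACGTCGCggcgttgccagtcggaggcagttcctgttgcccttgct
Psmb6, chr11:70525107-70525356, + strand: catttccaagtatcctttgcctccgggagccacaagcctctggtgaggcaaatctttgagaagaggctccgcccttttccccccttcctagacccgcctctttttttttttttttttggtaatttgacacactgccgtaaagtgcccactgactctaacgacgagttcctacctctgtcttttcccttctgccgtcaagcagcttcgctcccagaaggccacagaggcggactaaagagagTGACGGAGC

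The motif nearest the start began 16 bases before it in Psmd8, 102 in Psma4, 47 in Psmb5 and 9 in Psmb6, and the Psmd5 stretch held none. Of the 49 members, 41 had an entry. On either strand, CGGAAG occurred in 21 of the 41 (51.2%), against 27.4% of the promoters of tested genes and 15.3% of all 27025 genes. TGACNNNGC occurred in 5 members (12.2%; Psmb5, Psmb6, Psmc6, Psmd9 and Psmd12), against 14.1% of tested and 11.5% of all genes. GAAANNGAAA, the core of the interferon-stimulated response element, occurred in 3 (7.32%), against 3.24% and 3.46%, and CCAAT in 14 (34.1%), against 40.4% and 37.5%. A match, or none, describes only the letters of these windows.

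All 8 alpha subunits had a positive log2 fold change, from 0.03 to 0.62 with a median of 0.18, and none passed the test. Across the other settings tried, 6 to 8 of the 8 were positive. Psma4 differed most. It was at 181.2, 134.6, 109.0, 87.90 and 148.2 CPM in naive 1 to 5 and at 203.5, 135.9, 254.9, 204.2 and 241.2 CPM in SCVS 1 to 5. SCVS 2 lay within the naive range and the other SCVS replicates above it, a log2 fold change of 0.62 (SE 0.33, adjusted p = 1.0 in edgeR). An uncharacterised gene overlaps Psma4 in the mm9 annotation, and whether counting used strand is not stated. Psma1, another alpha subunit, was at 163.3, 252.3, 341.0, 229.4 and 290.5 CPM in naive and at 233.3, 294.8, 421.8, 431.9 and 335.1 CPM in SCVS replicates, with 3 naive replicates inside the SCVS range and a log2 fold change of 0.40 (SE 0.31). The other common alpha subunits, Psma2, Psma3, Psma5, Psma6 and Psma7, had log2 fold changes between 0.03 and 0.21. Psma8, with 0 counts in 5 of 10 replicates, had 0.42 with a wide SE of 2.45.

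Among the beta subunits, 6 of 8 tested were higher and 2 lower, with a median log2 fold change of 0.16, and 6 to 8 were higher across the other settings. The structural subunit Psmb1 had the smallest p of them, at 134.6, 401.8, 330.2, 186.7 and 324.6 CPM in naive and 387.7, 345.4, 351.2, 273.4 and 425.5 CPM in SCVS replicates. The naive range was wide and held all but SCVS 5, and the log2 fold change was 0.33 (SE 0.33). Of the catalytic subunits, Psmb5, which carries the chymotrypsin-like site, was at 166.9, 161.7, 105.0, 154.6 and 220.8 CPM in naive and 299.1, 236.3, 165.0, 214.1 and 124.2 CPM in SCVS replicates (log2 fold change 0.31, SE 0.32). Psmb6, with the caspase-like site, was the steadiest, at 386.0 ± 62.97 CPM in naive and 432.9 ± 64.92 CPM in SCVS replicates (SD, n = 5 each; log2 fold change 0.13, SE 0.24). Psmb7, with the trypsin-like site, was at 74.24 ± 24.98 and 76.05 ± 22.23 CPM, and its log2 fold change of -0.01 (SE 0.42) changed sign with the scaling. The groups overlapped for all 3 catalytic subunits.

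The ATPases showed no common direction, with 3 higher, 3 lower and a median log2 fold change of -0.04. Psmc3, the one with the smallest p, was at 254.7, 409.7, 185.0, 274.3 and 311.6 CPM in naive and 214.3, 273.0, 164.9, 201.8 and 246.3 CPM in SCVS replicates. SCVS 3 lay below every naive replicate and the rest overlapped, with a log2 fold change of -0.43 (SE 0.28, adjusted p = 1.0 in edgeR). The other 5 ATPases lay between -0.21 for Psmc4 and 0.18 for Psmc6.

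Of the 11 non-ATPase subunits, 9 were lower and 2, Psmd11 and Psmd13, higher in SCVS, with a median log2 fold change of -0.11. The direction was not stable across settings, under which 5 to 11 were lower. Without naive 5, 6 were higher and 5 lower, with a median of 0.01, and without SCVS 3 the counts were the same, with a median of 0.04. Psmd8, a lid subunit, had the smallest p of all members. It was at 159.5, 237.6, 278.2, 159.0 and 315.5 CPM in naive and at 158.9, 83.30, 90.79, 139.6 and 112.6 CPM in SCVS replicates. The groups did not overlap, though SCVS 1 and naive 4 were nearly equal. The mean was 230.0 ± 70.20 CPM in naive and 117.0 ± 32.04 CPM in SCVS replicates (SD, n = 5 each). The log2 fold change was -1.01 (SE 0.34, adjusted p = 0.964 in edgeR). Psmd8 was the only member lower in SCVS without overlap, as were 27 (0.182%) of all tested genes. Its log2 fold change stayed between -1.14 and -0.86 under the other settings, with adjusted p between 0.295 and 1.0. Its unadjusted p rose above 0.05 with detected genes as a covariate (0.0571 in edgeR) and was 0.0434 with the replicate block. Psmd14, the deubiquitinase of the lid, and Psmd4, a ubiquitin receptor, had log2 fold changes of -0.08 (SE 0.48) and -0.29 (SE 0.33).

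The assembly factors held the lowest median of the subcomplexes, at -0.50, with 6 of 8 lower in SCVS and none past the test. They were also measured least precisely, with a median SE of 0.70. The other subcomplexes had 0.31 to 0.44, Psmc3ip aside. Only 1 of the 8 intervals lay within -1 and 1. With Psmd5, Psmd9 and Psmd10 placed among the non-ATPase subunits instead, the median of the remaining assembly factors was -0.29. Their summed CPM was 796.0, 791.9, 737.4, 701.5 and 723.8 in naive and 570.4, 699.8, 506.0, 588.2 and 679.1 in SCVS replicates. The groups did not overlap, with SCVS 2 just under naive 4, and the sum was 0.811 times the naive mean, or 0.781 to 0.846 times under other settings. Without Psmd5 the groups overlapped, at 431.2 to 663.9 CPM in naive and 396.1 to 593.1 CPM in SCVS replicates, a ratio of 0.888. The chaperones of the regulatory particle and those of the core are given apart, a split made after the values were seen.

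Psmd5, Psmd9 and Psmd10, the chaperones that pair the ATPases during assembly of the regulatory particle, had log2 fold changes of -0.82 (SE 0.36), -0.71 (SE 0.53) and -0.82 (SE 0.60). Psmd5 was at 132.0, 160.3, 135.4, 215.9 and 292.6 CPM in naive and 79.18, 106.7, 109.9, 81.61 and 166.9 CPM in SCVS replicates. Only SCVS 5 reached the naive range, and the adjusted p in edgeR was 1.0. Its log2 fold change ran from -1.03 to -0.59 under the other settings, and its unadjusted p was above 0.05 with upper-quartile scaling, no filter, the replicate block or detected genes as a covariate, and without any 1 of naive 4, naive 5, SCVS 1, SCVS 2, SCVS 3 and SCVS 4. The 3 chaperones summed to 316.3, 321.6, 283.6, 303.5 and 412.6 CPM in naive replicates. In SCVS replicates the sum was 141.3, 223.5, 154.7, 186.9 and 267.9 CPM, again without overlap. How often sums of other genes separate this way was not computed, for this sum or that of all assembly factors. Psmd5 had the largest mean of the 3 in both groups. Psmd9 overlapped between groups, at 47.11 to 84.43 CPM in naive and 13.45 to 77.92 CPM in SCVS replicates. Psmd10 did too, at 37.06 to 120.5 and 16.31 to 91.81 CPM. The core chaperones Psmg1 to Psmg4 summed to 119.9 ± 23.34 CPM in naive and 95.38 ± 19.49 CPM in SCVS replicates (SD, n = 5 each). Pomp was at 353.4, 326.4, 342.6, 264.0 and 227.2 CPM in naive and 327.0, 361.6, 253.5, 301.7 and 348.6 CPM in SCVS replicates, with overlapping groups and a log2 fold change of 0.02 (SE 0.25).

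The regulatory particle was also set against the core within each library. The 14 standard core subunits summed to 3341 ± 269.6 CPM in naive and 3903 ± 310.6 CPM in SCVS replicates, and the 17 regulatory particle subunits to 3044 ± 211.7 and 2819 ± 376.7 CPM (SD, n = 5 each), with overlapping groups in both sums. The ratio of the second to the first, which no scaling of a library can change, was 0.892, 0.799, 0.954, 0.936 and 0.991 in naive and 0.734, 0.792, 0.536, 0.787 and 0.781 in SCVS replicates. All naive ratios lay above all SCVS ratios, with naive 2 and SCVS 2 nearly equal. Without Psmd8 the ratio ran from 0.736 to 0.899 in naive and from 0.513 to 0.769 in SCVS replicates, and the groups overlapped. The ratio was formed after the values were seen and is given with no test and no share over other gene sets. Most fibroblast, mural, blood endothelial and neural markers had negative log2 fold changes too, and most lymphatic, leukocyte and erythroid markers positive ones. The erythroid sum was largest in SCVS 5 and the leukocyte sum in SCVS 4. The sums of all these lists overlapped between the groups, and their part in the ratio was not tested. In SCVS 3, where it was lowest, the non-ATPase sum was 1083 CPM, against 1560 to 1728 CPM in the other SCVS replicates.

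**Figure D4:**
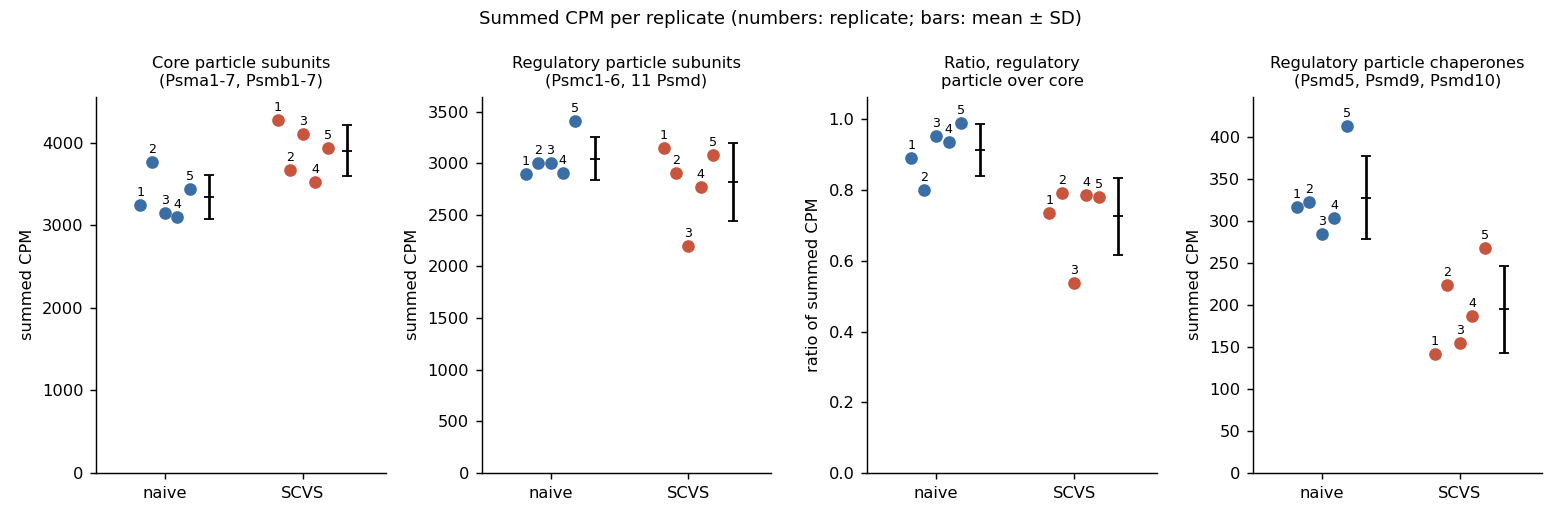
Summed CPM of the core subunits, of the regulatory particle subunits and of the regulatory particle chaperones, and the ratio of the regulatory particle to the core, in each replicate, numbered, naive in blue and SCVS in red, with mean ± SD in black and vertical axes from 0. The first 2 panels overlap between groups, and the ratio (naive 0.799 to 0.991, SCVS 0.536 to 0.792) and the chaperones (naive 283.6 to 412.6 CPM, SCVS 141.3 to 267.9 CPM) do not. The ratio and the chaperone sum were both formed after the values were seen.

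Of the 6 activators or inhibitors, 5 were higher and 1 lower in SCVS, with a median log2 fold change of 0.14. Among the 5, Psme2b was at 0.0 (SE 0.47). Without SCVS 1, 3 were higher and 3 lower, with a median of -0.01. Without naive 5, 2 were higher and 4 lower, with a median of -0.06. Psme1 and Psme2, which form the activator induced by interferon, and Psmb10, the immunoproteasome partner of Psmb7, were at 84.25, 49.44 and 26.26 CPM there. The 3 summed to 159.9 CPM in naive 5 against 427.9 to 770.5 CPM in the other 9 replicates. Psmb10 itself was at 212.8, 163.6, 80.50, 131.9 and 26.26 CPM in naive and 169.2, 206.1, 124.5, 150.1 and 89.24 CPM in SCVS replicates, with overlapping groups and a log2 fold change of 0.20 (SE 0.49) that was -0.05 without naive 5. The SCVS mean of the sum was 1.15 times the naive mean, and 0.985 times without naive 5. Psme2b, a near-identical copy of Psme2, followed it at 27.91 CPM in naive 5 and 83.63 to 190.6 CPM elsewhere, and reads of both genes may be split between them.

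The remaining immunoproteasome subunits, which are not members, were low in the same library. Psmb8 had 106 counts in naive 5 and 2086 to 7779 in the others, and Psmb9 129 against 1046 to 2759. Each was set against the standard subunit it replaces, per kilobase. Psmb8 over Psmb5 was 0.0193 in naive 5 and 0.385 to 1.6 in the other 9, Psmb9 over Psmb6 was 0.0181 and 0.105 to 0.370, and Psmb10 over Psmb7 was 0.238 and 0.869 to 3.71. Of the standard subunits in naive 5, Psmb5 and Psmb7 had their highest naive values, at 220.8 and 100.7 CPM, and Psmb6 its lowest value of all 10 replicates, at 315.9 CPM against 330.3 to 494.7 CPM. Naive and SCVS replicates overlapped in all 3 ratios, also without naive 5.

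**Figure D5:**
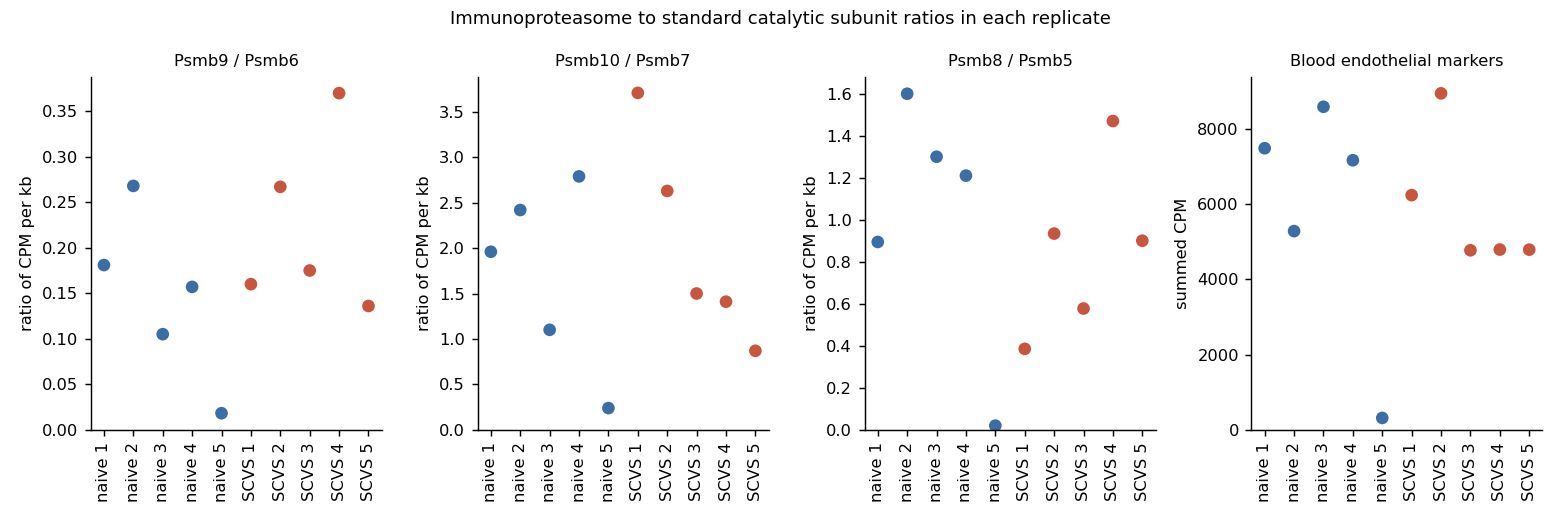
Ratio of CPM per kb of each immunoproteasome subunit to the standard subunit it replaces, and, at right, the summed CPM of 6 blood endothelial markers, in each replicate (naive blue, SCVS red), with vertical axes from 0. Naive 5 is lowest in all 4 panels, at 0.0181, 0.238 and 0.0193 and at 312.5 CPM. Its sum of lymphatic markers, not drawn, was lowest too, at 206.4 CPM.

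Psme4, which caps the core in place of the regulatory particle, was at 46.44, 52.31, 16.82, 48.85 and 71.20 CPM in naive and 29.87, 41.08, 10.87, 0.07556 and 29.75 CPM in SCVS replicates. The low SCVS mean rested partly on SCVS 4, with 1 count, and the log2 fold change was -1.16 (SE 1.03, adjusted p = 1.0 in edgeR). Psme3, the nuclear activator, had a log2 fold change of 0.86 (SE 1.13), and Psmf1, an inhibitor of the core, 0.32 (SE 0.41).

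A list of 27 other genes of the pathway (immunoproteasome subunits, proteasome-bound ubiquitin factors and regulators of proteasome genes) was read beside the members. Of these, 26 were found and tested, 11 were higher and 15 lower in SCVS, the median log2 fold change was -0.01, and 0 passed edgeR's adjusted p or an unadjusted p under 0.05. Nfe2l1, a transcription factor that raises proteasome genes when proteasome activity is short, was at 94.71, 85.43, 35.71, 88.04 and 15.45 CPM in naive and 65.35, 125.3, 51.60, 69.59 and 1.602 CPM in SCVS replicates, with overlapping groups and a log2 fold change of -0.11 (SE 0.83).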

How the data were processed

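RNA of sorted meningeal LECs was sequenced in 10 replicates, 5 naive and 5 SCVS, grouped by their labels. The authors used whole-transcriptome amplification and deposited raw counts per gene, with no normalization. Their methods name the mm9 genome and Hisat2, while the submitters' processing notes list GRCm38, cutadapt 1.9.1, HISAT2 2.0.1, HTSeq 0.6.1 and DESeq2, so the build is not certain. The annotation and the use of strand are not given in the sources used here, and 19 members overlap another gene in the mm9 annotation (GENCODE M1).

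Members and lists were chosen with earlier results of these data known. Psmd5, Psmd9 and Psmd10 were counted as assembly factors. Genes that exceeded 5 counts in 3 or more replicates were tested with edgeR 4.0.16 (quasi-likelihood, TMM, Benjamini-Hochberg adjustment over all 14815 genes, threshold 0.1), in R 4.3.3. The SE is the absolute log2 fold change over the square root of F. Alternatives were DESeq2 1.42.0, limma 3.58.1 with voom and quality weights, other scalings and filters, a replicate block, and leaving out replicates. CPM used total counts. Detection meant more than 3 counts. Amplified reads carry no molecular identifiers, so 3 counts cover counting error only. Named were the 3 members with the smallest p in each direction, the smallest of each subcomplex, Psmb5, Psmb6, Psmb7, Psmb10 and Pomp, and others were named after their values were seen. The main edgeR test and DESeq2 were also run on simulated counts. Those had a smaller spread between replicates, so they cannot show how many changes would be found in these data. P-values measure the spread between these pools.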

Additional observations from a re-analysis of the deposited data

Results flagged for a closer look

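Within a group of 5 replicates, a lone highest or lowest value could be marked. It was marked when its gap to the nearest other exceeded 0.71 of the group's range (Dixon's test at 95%). The tested members and the subcomplex sums were checked this way. Of 114 such groups 10 were marked, and chance marks about 1 in 20. Low values were Psma5 in naive 3, at 90.02 CPM against 176.9 to 203.5 CPM in the other naive replicates, and the summed non-ATPase subunits in SCVS 3, at 1083 CPM against 1560 to 1728 CPM. High values among the SCVS replicates were Psma6 in SCVS 2 (376.2 CPM, others at most 250.6), Psma7 in SCVS 1 (531.6 CPM, others at most 390.8), Psmc6 in SCVS 1 (382.1 CPM, others at most 190.0), Psma8 in SCVS 4 (42.01 CPM, others at most 9.201) and Psmg3 in SCVS 3 (38.86 CPM, others at most 18.65). High values among the naive replicates were Psmg3 in naive 4 (47.01 CPM, others at most 22.75), Psmg4 in naive 1 (67.84 CPM, others at most 22.83) and the summed regulatory particle subunits in naive 5 (3411 CPM, others 2898 to 3006). No replicate was marked for more than 2 of these measures.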

How the results depend on the processing

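The number of members called was 0 under all 21 alternatives, while the number of all genes called moved from 0 to 114 with DESeq2 and 3 with limma. The median log2 fold change of the members lay between -0.01 and 0.08. Of the 12 members followed singly, Psmb7, Psmb10 and Pomp changed sign. The log2 fold change of Psmb7 (-0.01) was 0.03 with total counts, 0.01 with upper-quartile scaling and with detected genes as a covariate, 0.0 with the replicate block, 0.17 with limma, -0.16 to 0.15 when leaving out each replicate, and 0.40 without naive 1 and naive 5, a setting added after seeing the data. Leaving out each replicate gave -0.05 to 0.53 for Psmb10, negative without naive 5, and -0.06 to 0.10 for Pomp, negative without naive 4, naive 5 or SCVS 5. The median of the ATPases moved from -0.04 to 0.23 with detected genes as a covariate. Those of the non-ATPase subunits and the activators changed sign without naive 5 (0.01 and -0.06). The non-ATPase median also changed sign without SCVS 3 (0.04), and that of the activators without SCVS 1 (-0.01). The replicate block left 0 genes called and took the number at an unadjusted p under 0.05 from 460 to 266. Replicates that share a number came from different animals, the correlations of their deviations were 0.04, 0.05, -0.02, 0.06 and 0.15, and 4 of 5 naive and 3 of 5 SCVS replicates correlated best with their own number. Without naive 1 and naive 5, 0 members were called, and Psma4 and Psmd8 had an unadjusted p under 0.05. Only 18 of the 48 intervals exclude changes beyond 1 on the log2 scale.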
